A study of Mus musculus with 12 samples.

Results

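The MAP kinase phosphatases examined here are 8 genes of the dual-specificity phosphatase family, Dusp1, Dusp2, Dusp4, Dusp6, Dusp9, Dusp10, Dusp14 and Dusp16. Their probe sets were taken by gene symbol from the annotation of an Affymetrix mouse array, and 10 of its 22690 probe sets carried one of these symbols. Those 10 probe sets stood for 7 of the 8 genes, since no probe set listed Dusp4, alone or among several symbols, and it is not analysed here. The 7 genes were chosen with their difference between the genotypes already known, so their levels in the 2 genotypes are given as a description. Where a call past a threshold is given for them, it describes the fit and is no support for a difference.

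The arrays hold RNA of mammary gland tumours from female FVB mice that carried an MMTV-c-myc transgene, an oncogene under a viral promoter active mainly in the mammary epithelium. In 6 samples the genotype was Hunk knockout (MMTV-c-myc/Hunk KO) and in 6 it was wild type for Hunk, a protein kinase of the Snf1 family. All 12 samples therefore share the transgene, and all of the mice had been mated before they were watched for tumours. In the knockout allele a neo selection cassette took the place of the presumed promoter and the first exon by gene targeting in embryonic stem cells, per the labels. The labels number the arrays without stating whether separate tumours or mice were used for them, so differences are set against a spread that may in part be technical. An array number below is the replicate number of its label.

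MAP kinases are switched on by phosphate groups on a threonine and a tyrosine of their activation loop, and dual-specificity phosphatases remove both. The family falls into inducible nuclear enzymes that act on several MAP kinases (Dusp1, Dusp2, Dusp4), ERK-preferring enzymes (Dusp6, Dusp9), enzymes that prefer the stress kinases JNK and p38 (Dusp10, Dusp16) and small atypical enzymes without a kinase docking domain (Dusp14). Transcription of several of them rises when their own substrate kinase is active, which makes them both brakes on the pathway and readouts of it.

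The promoters of Dusp6 and Dusp1 are shown because these genes had the largest differences in opposite directions among the 7. Each is the 250 bases before the annotated start, read 5′ to 3′ on the gene's own strand, from RefSeq on the GRCm38.p6 build. Dusp6 lies at chr10:99262981-99263230 on the plus strand and Dusp1 at chr17:26508473-26508722 on the minus strand. Capitals mark matches to the motifs searched on both strands.
Dusp6: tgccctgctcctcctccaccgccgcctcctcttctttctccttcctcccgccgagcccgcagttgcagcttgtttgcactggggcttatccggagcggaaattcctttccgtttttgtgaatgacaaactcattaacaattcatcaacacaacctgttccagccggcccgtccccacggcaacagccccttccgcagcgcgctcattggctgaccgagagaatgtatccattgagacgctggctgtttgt
Dusp1: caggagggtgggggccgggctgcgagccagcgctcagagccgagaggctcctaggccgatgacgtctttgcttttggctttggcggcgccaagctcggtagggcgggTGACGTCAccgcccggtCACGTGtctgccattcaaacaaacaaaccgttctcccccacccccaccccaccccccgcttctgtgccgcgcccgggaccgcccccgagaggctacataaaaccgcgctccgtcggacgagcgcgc

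The motifs were the cyclic AMP response element TGACGTCA, the AP-1 site TGANTCA, the E-box CACGTG bound by c-Myc and related factors, and the ETS site CCGGAAGT. The Dusp1 window held 1 cyclic AMP response element at positions -143 to -136 and 1 E-box at positions -126 to -121, counted from the start. None of the 4 motifs was found in the Dusp6 window. Of 32851 promoter windows of this length, 1.55% held the cyclic AMP response element, 6.75% the AP-1 site, 6.02% the E-box and 2.88% the ETS site. The matches in the Dusp1 window did not overlap each other. Of the 8 genes, 6 had an entry, and Dusp2 was the other one with a match, an E-box at -109 to -104. These matches describe the letters only.

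Values are log2 GCRMA signals, so a difference of 1 is a doubling, and levels of different probe sets cannot be set against each other. A gene was tested where its brightest probe set averaged above 3.98, the median over probe sets, and 6825 genes were. The highest Bacillus control probe set of an array, which no mouse transcript matches, is called its background. Of the 7 phosphatases, 2 were past the threshold of limma's test (Benjamini-Hochberg adjusted p of 0.05), both lower in the knockout, and 5 were not. This is 28.6% of the genes, beside 3.34% of all genes tested, 1.68% lower and 1.66% higher, and nothing is read from it, since the genes were chosen on this contrast. No phosphatase of the 7 was called higher by limma, and 1, Dusp1, was higher at an unadjusted p under 0.05. The median log2 difference over the 7 was 0.06, beside 0.01 over all genes.

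Among the genes examined, those that prefer ERK, Dusp6 and Dusp9, were the ones that were lower. Dusp6, the cytoplasmic phosphatase that binds and inactivates ERK and is itself induced by ERK signalling, read 4.69, 4.41, 4.06, 2.91, 3.97 and 4.24 on knockout arrays 1 to 6. On wild-type arrays 1 to 6 it read 9.88, 8.20, 6.71, 9.25, 10.30 and 9.43. The groups did not overlap, and the lowest wild-type array stood 2.03 above the highest knockout array. Non-overlapping groups with the knockout below were found for 1.44% of all genes. The knockout mean was 4.05 ± 0.61 and the wild-type mean 8.96 ± 1.31 (SD, n = 6 each).

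The difference for Dusp6 was -4.92 on the log2 scale (SE 0.54, 95% confidence interval -6.08 to -3.75), which is 30.2-fold lower (13.4 to 67.9). Within the wild type, array 3 was the lowest and array 5 the highest. Knockout array 4 was below its array's background, while the other 5 knockout arrays were above theirs, and the size of the fold rests on these low signals. With every value raised to its array background the difference was -4.79. Leaving out each array in turn gave -5.37 to -4.65. A filter at the 75th percentile left Dusp6 untested. It was past the threshold in the 23 other alternative settings. These repeat the contrast on which the genes were chosen and so are no support for it.

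Dusp9, another phosphatase with a preference for ERK, was represented by 3 probe sets. Its brightest, 1433845_x_at, read 3.73, 3.96, 4.23, 4.21, 3.81 and 3.77 on knockout arrays 1 to 6 and 4.66, 4.72, 5.48, 4.90, 5.45 and 4.68 on wild-type arrays 1 to 6. All knockout arrays were below all wild-type arrays, with a gap of 0.43. The means were 3.95 ± 0.22 (SD, n = 6) and 4.98 ± 0.39 (SD, n = 6), a difference of -1.03 (SE 0.17, 95% confidence interval -1.40 to -0.66) or 2.04-fold lower. A name ending in _x_at marks a probe set that can also match related transcripts.

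The other Dusp9 probe sets lay below the expression filter. For 1454737_at the knockout arrays lay between 3.15 and 3.51 (median 3.36), none above background, and the wild-type arrays between 4.08 and 5.10 (median 4.47), all 6 above background. These groups too were apart, by 0.56, and Dusp9 by this probe set was at least 1.71-fold lower. The third, 1433844_a_at, was below background on all 12 arrays, with means of 3.29 ± 0.08 and 3.23 ± 0.07 (SD, n = 6 each), and gave no usable level. Over the 23 alternatives that tested Dusp9, its difference lay between -1.27 and -0.93.

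**Figure D1:**
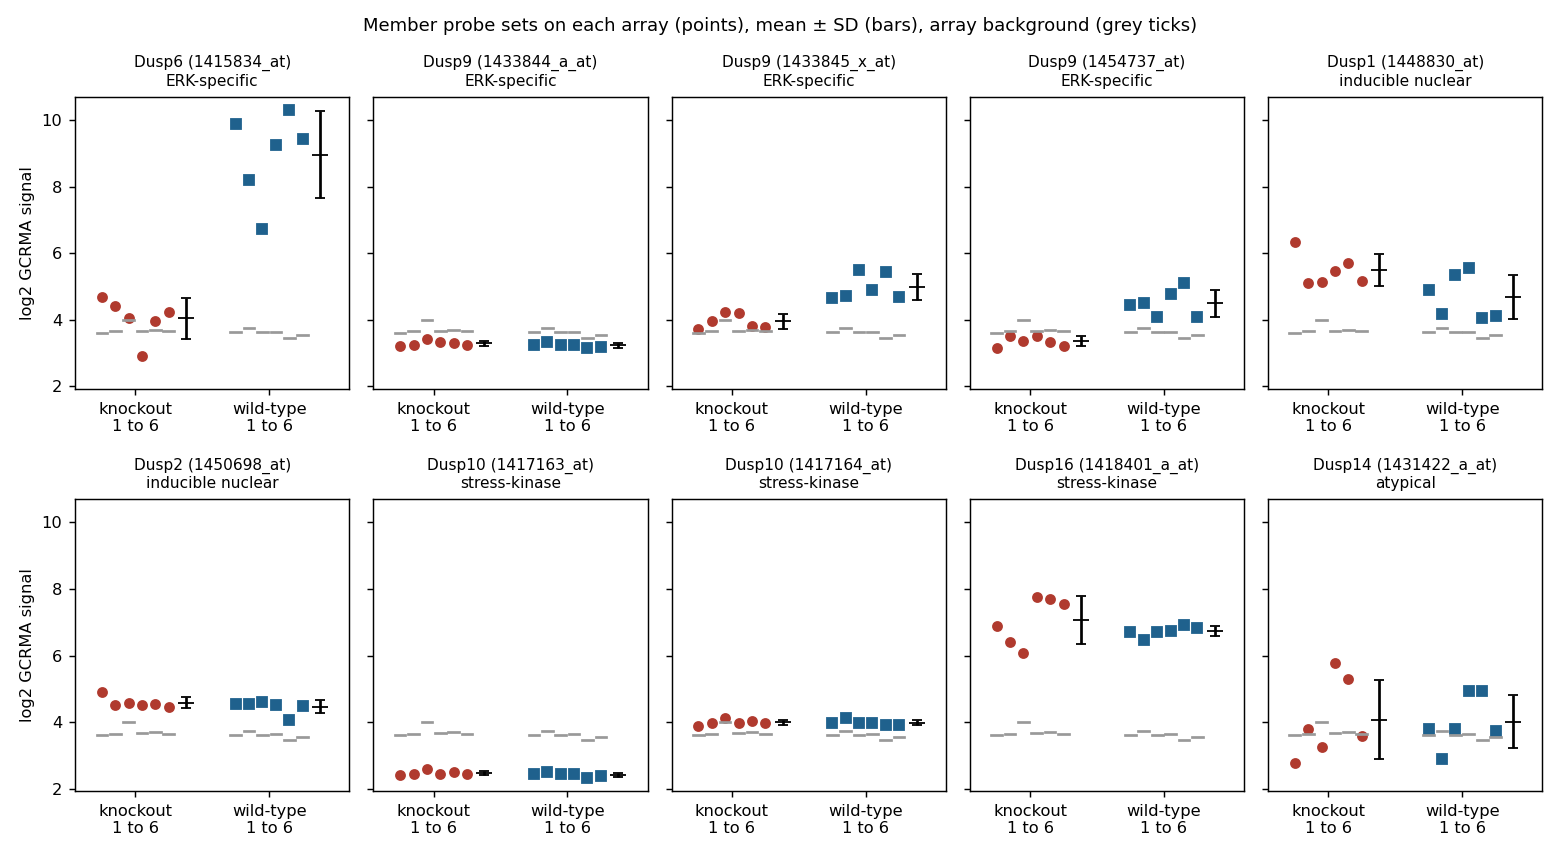
Each panel plots 1 probe set, with the log2 GCRMA signal on the vertical axis, a point for each knockout (circles) and wild-type (squares) array in the order of replicate numbers, bars for the mean ± SD (n = 6) and grey ticks for the background of each array. Dusp6 and 2 of the 3 Dusp9 probe sets separate the genotypes, whereas Dusp16 and Dusp14 spread widely within the knockout.

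Dusp7, the other ERK-preferring cytoplasmic enzyme and not among the 8 genes, gives a comparison within the same class. Its brightest probe set, 1427416_x_at, averaged 5.15 ± 0.78 in knockout and 5.12 ± 0.71 in wild-type samples (SD, n = 6 each). The groups overlapped and the difference was 0.03 (95% confidence interval -0.82 to 0.88), an interval that reaches neither the difference of Dusp6 nor that of the brightest Dusp9 probe set, although it overlaps the interval of the latter. A second Dusp7 probe set, 1452097_a_at, differed by -0.11 (95% confidence interval -0.82 to 0.60). Of 20 further listed genes of the dual-specificity family, 12 had a probe set, 8 were tested and none passed limma's threshold, nor did any at an unadjusted p under 0.05. By the brightest probe set of each, the differences of these genes ran from -0.35 for Dusp12 to 0.13 for Dusp26, with a median of 0.03. Dimmer probe sets above the filter went further, with -0.39 for Dusp11 on 1452594_at (95% confidence interval -0.81 to 0.02). For Styx on 1429710_at the difference was 0.18 (95% confidence interval -0.43 to 0.79).

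**Figure D2:**
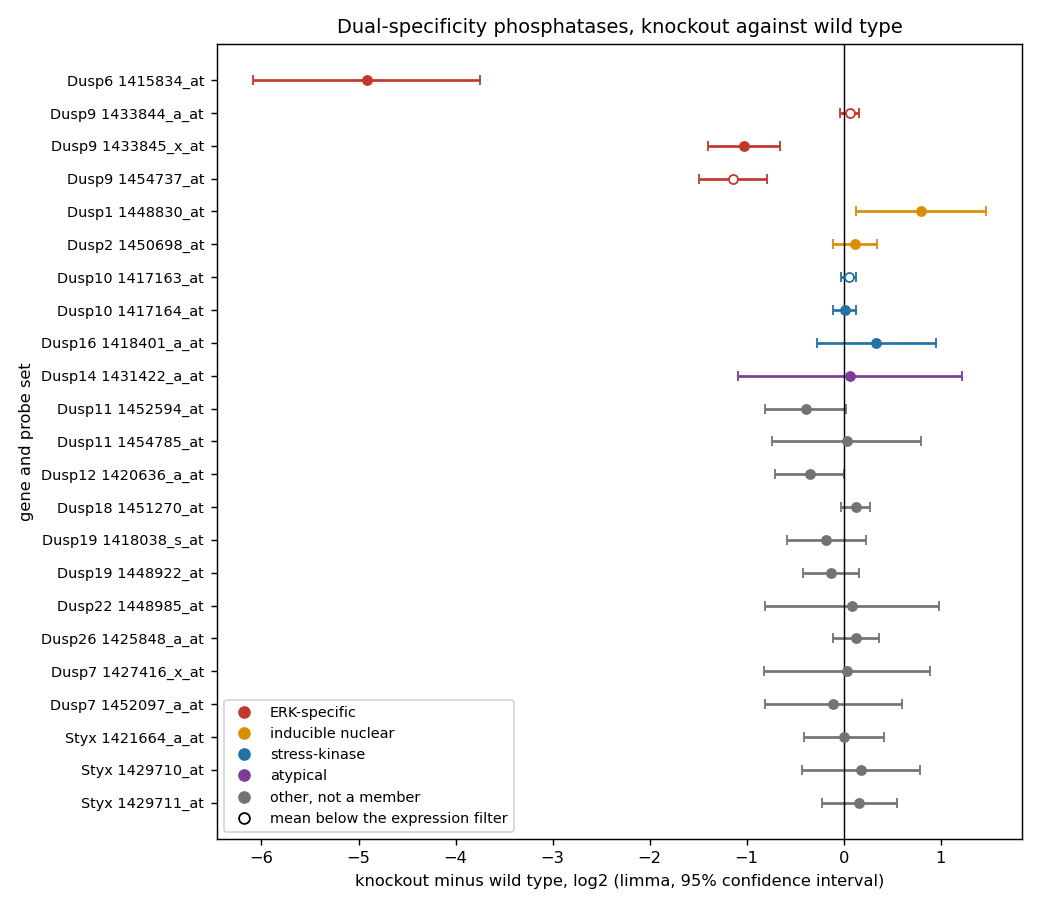
Points give the knockout minus wild-type difference (log2) of each probe set of the 7 phosphatases, and of further family members above the expression filter, with 95% confidence intervals from limma. Dusp6 (-4.92) and the Dusp9 probe sets 1433845_x_at (-1.03) and 1454737_at (-1.14) lie to the left of 0, and Dusp1 (0.79) is the one interval that lies wholly to the right.

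The inducible nuclear enzymes were not lower. Dusp1, an immediate early gene that dephosphorylates p38, JNK and ERK, read 6.34, 5.11, 5.14, 5.45, 5.71 and 5.16 on knockout arrays 1 to 6. It read 4.90, 4.17, 5.35, 5.55, 4.06 and 4.10 on wild-type arrays 1 to 6. The groups overlapped, because wild-type arrays 3 and 4 lay inside the range of the knockout, whereas wild-type arrays 1, 2, 5 and 6 were below all knockout arrays. The means of Dusp1 were 5.48 ± 0.48 and 4.69 ± 0.67 (SD, n = 6 each).

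The difference for Dusp1 was 0.79 (SE 0.31, 95% confidence interval 0.12 to 1.46), or 1.73-fold higher, and it was past the threshold in 0 of 23 alternatives. It ran from 0.62 to 0.97 with each array left out. The beta-actin 3′ minus 5′ signal, which is larger where RNA is less intact, was also higher in the knockout (1.51 ± 0.15 against 1.29 ± 0.05, SD, n = 6 each, exact two-sided permutation p = 0.0108). That of Gapdh was higher too (0.20 ± 0.08 against 0.09 ± 0.08, SD, n = 6 each, exact two-sided permutation p = 0.0455). With the beta-actin measure as a covariate the difference of Dusp1 was 1.47 (SE 0.39), while Dusp6 was at -4.68 and Dusp9 at -1.27.

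Dusp2, a nuclear phosphatase best known from activated lymphocytes, lay between 4.47 and 4.90 (median 4.53) in the knockout and between 4.07 and 4.61 (median 4.53) in the wild type. The groups overlapped almost wholly, apart from a high knockout array 1 and a low wild-type array 5. The difference was 0.12 (SE 0.11, 95% confidence interval -0.11 to 0.35), and 0.32 with the beta-actin covariate. It was 0.05 without knockout array 1 and 0.04 without wild-type array 5. Of 12 lymphocyte markers 10 had a probe set, and 7 of these were at or below background on all 12 arrays.

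The stress-kinase phosphatases were not separated by genotype. Dusp16, which binds JNK and p38 and shuttles between nucleus and cytoplasm, read 6.89, 6.40, 6.07, 7.75, 7.71 and 7.56 on knockout arrays 1 to 6. On wild-type arrays 1 to 6 it read 6.72, 6.45, 6.72, 6.73, 6.91 and 6.83. Knockout arrays 4, 5 and 6 were above every wild-type array and arrays 2 and 3 below every one, so the wild-type values fell inside the spread of the knockout. The SD was 0.72 in the knockout and 0.15 in the wild type, a ratio of 4.67.

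The means of Dusp16, 7.06 and 6.73, differed by 0.34 (SE 0.28, 95% confidence interval -0.28 to 0.95). No setting of 24 put it past the threshold, and the difference ran from 0.20 to 0.64 over them. Over the probe sets above the expression filter, the SD of the difference between 2 arrays was taken for the 30 pairs within a genotype. It was 0.531 for the second most similar pair. Knockout arrays 4 and 5, which are next to each other in Dusp16, were the most similar pair, at 0.338. Whether they share a tumour was not tested. With the mean of knockout arrays 4 and 5 as 1 sample, the differences of Dusp6 and Dusp9 were -4.79 and -1.04.

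Dusp10, which acts on JNK and p38, had 2 probe sets. On 1417164_at it lay between 3.89 and 4.11 (median 3.98) in the knockout and between 3.92 and 4.13 (median 3.97) in the wild type. All 12 arrays were thus within a range of 0.24, just above background and at the edge of the expression filter. The means were 3.99 ± 0.07 and 3.98 ± 0.08 (SD, n = 6 each), a difference of 0.01 (95% confidence interval -0.11 to 0.13). The other Dusp10 probe set, 1417163_at, was below background on all 12 arrays.

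Dusp14, a small atypical phosphatase without the kinase docking domain, read 2.77, 3.80, 3.24, 5.79, 5.29 and 3.58 on knockout arrays 1 to 6. It read 3.79, 2.89, 3.79, 4.93, 4.94 and 3.74 on wild-type arrays 1 to 6. Both groups were split, with knockout arrays 4 and 5 and wild-type arrays 4 and 5 high and the others near or below background. Dusp14 was above background on 3 of 6 knockout and 5 of 6 wild-type arrays. The means were 4.08 ± 1.19 and 4.01 ± 0.79 (SD, n = 6 each), and the difference of 0.06 had a 95% confidence interval of -1.08 to 1.21 that spans about a doubling in either direction.

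Set side by side, Dusp6 and Dusp9 gave a pattern over the arrays unlike that of Dusp10 and Dusp16. Dusp7, also ERK-preferring but not among the genes examined, was left out, and it differed by 0.03 with overlapping groups. The mean deviation of Dusp6 and Dusp9 from their averages over all 12 arrays lay between -1.93 and -1.28 in the knockout and between 0.61 and 2.39 in the wild type. That of Dusp10 and Dusp16 lay between -0.35 and 0.42 in the knockout and between -0.15 and -0.03 in the wild type. The genotypes were thus apart for the first pair of genes and overlapped for the second. Within the first pair the separation is mostly that of Dusp6, whose range over all arrays was 7.39, against 1.75 for Dusp9. Within the second pair the spread is mostly that of Dusp16 (range 1.68), since Dusp10 spanned 0.24 just above background. The second mean therefore says little about Dusp10. No test is given for this contrast, which the choice of the genes used.

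Other genes of the pathway show what moved beside the phosphatases. Of 23 listed ERK feedback and target genes 14 were tested, and 5 of them were lower and none higher by limma (35.7%, beside 3.34% of all genes), with 11 lower and none higher at an unadjusted p under 0.05. Their median difference was -1.27, beside 0.01 over all genes, and 13 of the 14 were negative. Etv5, an ETS factor that ERK signalling induces, was below background on all 6 knockout arrays and at least 8.84-fold lower (limma, adjusted p = 0.00191). Spry2, which restrains growth factor receptor signalling, differed by -2.86 on the log2 scale or 7.27-fold (adjusted p = 0.000284), and above background on 5 of 6 knockout arrays.

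The Ras-Raf inhibitor Spred2 differed by -1.94 and the ERBB receptor inhibitor Errfi1 by -1.65 (limma, adjusted p = 0.00293 and 0.00316), and Spred1 was the fifth at -1.34 (adjusted p = 0.0107). Errfi1 and Spred1 lost their calls with the beta-actin covariate, and Spred1 also with the replicate number as a block. For these 5 genes, as for Dusp6, no knockout array reached the lowest wild-type array, which held for 1.44% of all genes tested. In the list it also held for Hbegf, which did not pass (limma, adjusted p = 0.0757). The list is not independent evidence, since it was drawn up with earlier results of these arrays known. Phlda1, the gene of highest mean signal in the list, differed by -1.58 with overlapping groups and did not pass (adjusted p = 0.119).

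Immediate early and stress genes, the class to which Dusp1 belongs, had no common direction. Of 26 listed 20 were tested, 2 were higher and 1 was lower (15% in all, beside 3.34% of all genes), with a median difference of 0.16. Jund, a subunit of AP-1, was higher by 0.88 and Nfkbia, the NF-kappa-B inhibitor, by 0.69, whereas the kinase Sgk1 differed by -2.28 (limma, adjusted p = 0.0367, 0.0317 and 0.0036).

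The kinases themselves were mostly not past the threshold. The share of all genes called higher was 1.66%. Of 16 tested genes of the ERK cascade, 1 (6.25%) was higher, the ERK-activated kinase Mknk2 (difference 0.92, limma adjusted p = 0.0436), and none was lower, with 3 higher and 2 lower at an unadjusted p under 0.05. Their median was 0.05. Of 13 tested genes of the stress-kinase cascade, 1 (7.69%) was higher, Gadd45g, an activator of the kinase upstream of p38 and JNK (difference 2.04, adjusted p = 0.00543; above background on 2 of 6 wild-type arrays), and none was lower at either threshold. The median of that list was -0.11, and the adaptor Tab2, its gene of highest mean signal, differed by -0.26 (adjusted p = 0.388). Of 11 other phosphatases, among them Ppp2ca, the catalytic subunit of protein phosphatase 2A (difference -0.18), none was past the threshold by limma and 2 were lower at an unadjusted p under 0.05, with a median of -0.07.

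**Figure D3:**
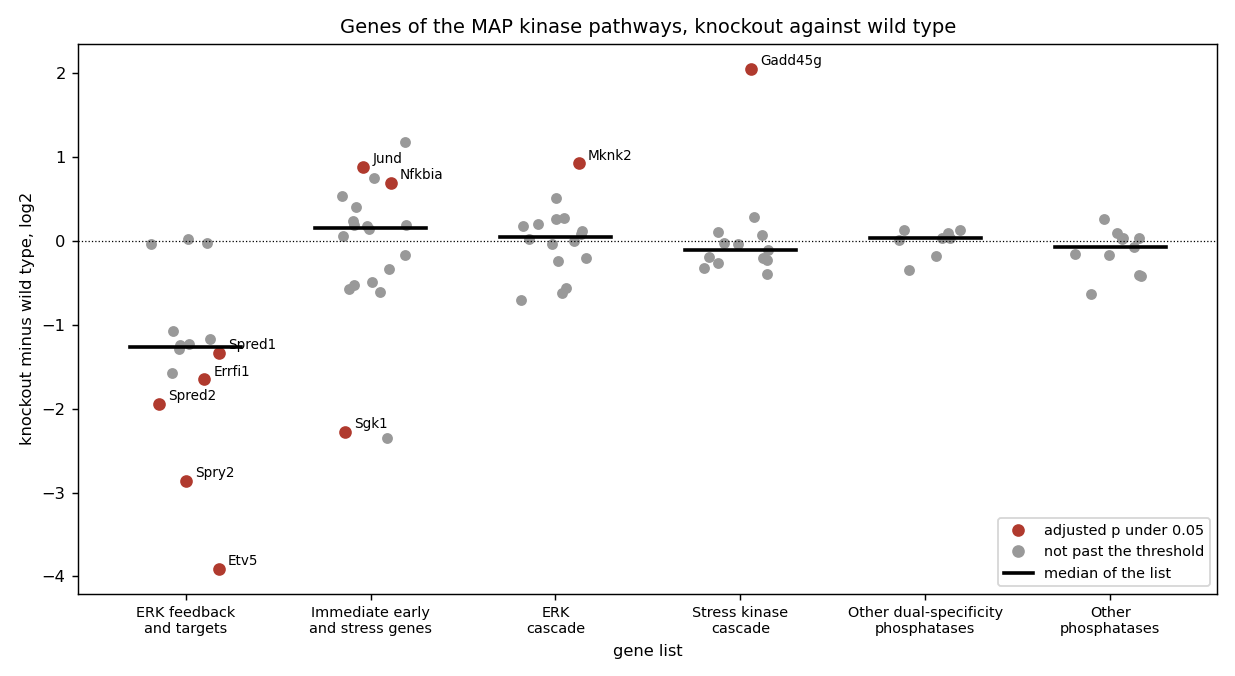
Points give the knockout minus wild-type difference (log2) of each tested gene of 6 lists, filled red and named where the limma adjusted p was under 0.05, with a bar at the median of each list. The ERK feedback list has its median at -1.27 and its 5 called genes below it, and the other medians lie between -0.11 and 0.16.

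Differences between arrays of the same genotype do not use the contrast on which the genes were chosen. Group means were therefore removed and each of the 7 genes was correlated with the others and with 23 references, 182 relations in all. The references were genes, marker means and the beta-actin 3′ minus 5′ signal. All 12 arrays were used, except for Hunk, where only the 6 wild-type arrays were. After Benjamini-Hochberg adjustment of exact permutation p-values, 1 relation was past 0.05, and 20 were at an unadjusted p under 0.05. The one was Dusp10 with the receptor signalling inhibitor Spry4 (r = 0.93, permutation adjusted p = 0.00737; rho = 0.89, adjusted p = 0.199). It was 0.98 in the knockout and 0.89 in the wild type, and 0.86 without the 2 arrays farthest from the median. Spry4 was below background on all 12 arrays, so this relation has no measured level of Spry4 behind it.

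Both Dusp10 and Spry4 had a range of 0.24 over all arrays and followed array background within the groups, Dusp10 at r = 0.89 (rho = 0.89, exact permutation p = 5.02e-05, adjusted over 8 relations 0.000255) and Spry4 at r = 0.97 (rho = 0.83, adjusted p = 0.000255). Without the 2 arrays farthest from the median these were 0.79 and 0.98. After each array was centred on its median, the relation of Dusp10 with Spry4 was 0.41 (adjusted p = 0.72). It also missed the threshold without wild-type array 6 (r = 0.93, adjusted p = 0.0948). The relation to background was examined after the data had been seen.

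Dusp6 and Etv5 had r = 0.84 among wild-type arrays, where both were above background, and -0.25 among knockout arrays, where Etv5 was below it. Over both groups r was 0.75 (rho = 0.20, exact permutation p = 0.0372, adjusted p = 0.394), and 0.89 without the 2 farthest arrays, so the relation did not pass the adjustment. Dusp6 ran against the stress factor Atf3 at r = -0.80 (rho = -0.57, permutation adjusted p = 0.356), and -0.66 without the 2 farthest, with -0.93 in the wild type and 0.12 in the knockout. With Spry2 its r was 0.45 (permutation adjusted p = 0.604) and with Dusp9 -0.38 (adjusted p = 0.787). No relation between the 2 ERK-specific phosphatases was thus detected within the genotypes, although both were lower in the knockout.

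Dusp6 was also set against the targeted gene within the wild type. Hunk read between 2.99 and 5.53 on wild-type arrays, above background on 4 of 6, and between 2.60 and 3.06 on knockout arrays, above background on none. This bounds it at 1.41-fold lower or more in the knockout, and the place of the probe set relative to the deleted part was not examined. Dusp6 and Hunk had r = 0.41 over the 6 wild-type arrays (rho = 0.49, exact permutation p = 0.417, adjusted p = 0.787). The sign turned to -0.68 without the 2 farthest arrays, so no relation was detectable.

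Other relations of the phosphatases did not pass the adjustment either. Dusp1 and Dusp2 had r = 0.66 (rho = 0.57, permutation adjusted p = 0.351) and 0.53 without the 2 farthest arrays, and Dusp1 with Nr4a1, an immediate early nuclear receptor, had r = 0.60 (rho = 0.37, adjusted p = 0.351). With Fos and Egr1, classical immediate early factors, Dusp1 had r = -0.06 and -0.24 (adjusted p = 0.948 and 0.788). With Junb it had r = -0.69 (rho = -0.43, permutation adjusted p = 0.351), and with Jun 0.53 (adjusted p = 0.521). With the beta-actin 3′ minus 5′ signal Dusp1 had r = -0.58 (rho = -0.57, permutation adjusted p = 0.356), and -0.13 without the 2 farthest arrays. Dusp16 and Dusp14, both high on knockout arrays 4 and 5, had r = 0.65 (rho = 0.69, adjusted p = 0.521).

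**Figure D4:**
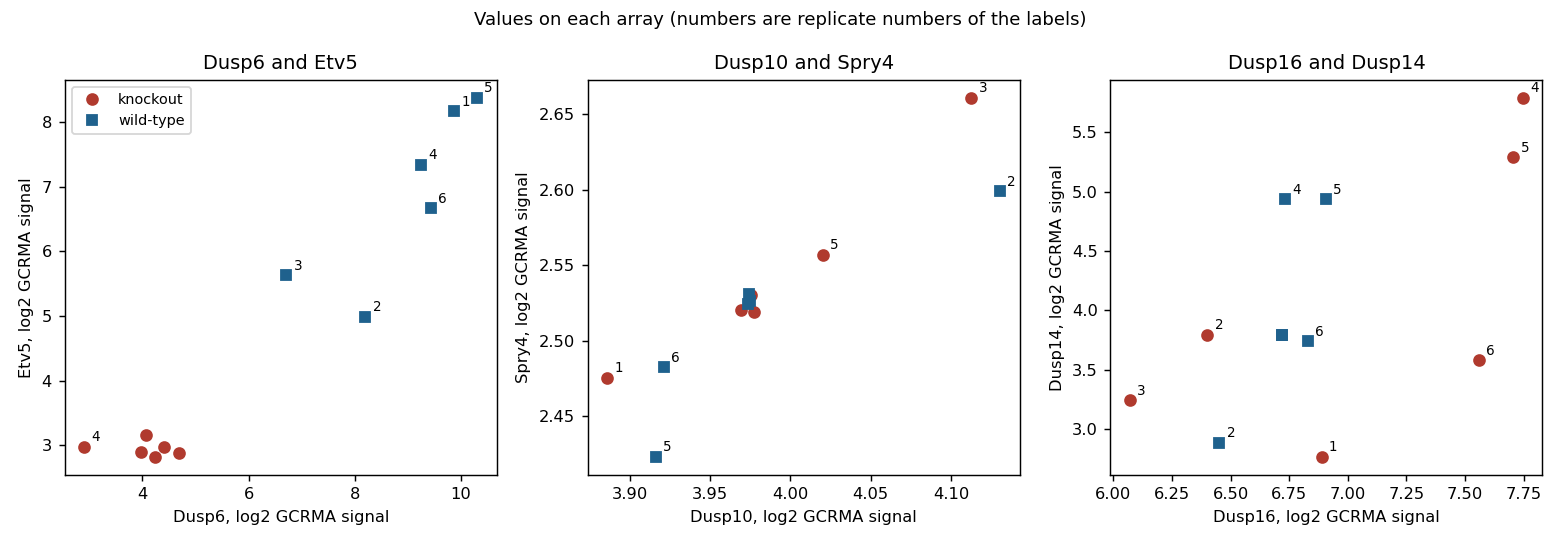
Each panel sets the log2 GCRMA signal of a phosphatase (horizontal) against that of another gene (vertical) on the 6 knockout and 6 wild-type arrays, with replicate numbers left out where points crowd. Etv5 and Dusp6 have r = 0.84 among wild-type and -0.25 among knockout arrays. Over both groups their relation did not pass (rho = 0.20, permutation adjusted p for r = 0.394). Dusp10 and Spry4 each span 0.24 in all, and knockout arrays 4 and 5 are high in both Dusp16 and Dusp14.

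The genes whose deviations from the group means were most like those of each phosphatase were ranked by Pearson r over the 12 arrays, among 3412 candidate genes that varied most. For Dusp6 they were Rnf103 (0.88), Snx4 (0.88), AW209491 (0.85), Slc25a20 (0.84) and Plekhb1 (0.84). None of these was past the threshold between the genotypes, the largest difference being -1.40 for Plekhb1 (limma adjusted p = 0.234). For Dusp9 they were Rars (0.87), Ddx56 (0.85), Mrm3 (0.81), Letmd1 (0.80) and Col1a2 (0.79).

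The genes most like Dusp1 were Ttll1 (0.87), Golph3 (0.85), Rgcc (0.84), Tesc (0.83) and Azin1 (0.82), and those most like Dusp2 were Atp6v0a2 (0.91), Galnt7 (0.91), Spast (0.86), Alg14 (0.86) and C1qb (0.86). For Dusp16 they were Pi4ka (0.90), Fzd7 (0.89), Ube4b (0.87), Kmt5c (0.87) and Cytip (0.87), of which Cytip was higher in the knockout (difference 1.94, limma adjusted p = 0.0218). For Dusp14 they were Eif3k (0.91), Emb (0.90), Wdr55 (0.90), 1810055G02Rik (0.89) and Trim47 (0.89), and for Dusp10 Ranbp2 (0.90), Plagl2 (0.85), Pcm1 (0.84), Oxnad1 (0.83) and Tlr3 (0.83). With this many candidates and 12 arrays such values are a ranking only.

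Markers of the cell types that the tumours could hold were read on the same arrays. Of the 10 epithelial markers, all tested, 1 passed limma's threshold, Krt19 (4.08 higher), and the differences of the others ran from -0.19 for Epcam and -0.17 for Krt18 to 1.10 for Elf3. Their mean lay between 9.33 and 9.93 on knockout arrays and from 8.60 to 9.11 on the wild-type ones (adjusted over 7 marker lists, permutation p = 0.0152, from an exact 0.00216 that is the smallest 6 against 6 arrays allow). Without Krt19, left out after its value was seen, the mean of the other 9 overlapped, from 9.12 to 9.86 against 8.64 to 9.76, and the difference went from 0.78 to 0.41 (exact permutation p = 0.0649). Krt19 thus carried much of that shift.

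Apart from the macrophage list, whose 10 markers were all tested, the other lists rested on the few markers above the expression filter. The mean of 2 of 8 adipocyte markers, Fabp4 and Car3, lay between 5.37 and 10.3 against 4.32 and 6.59, and that of 4 of 9 fibroblast markers, 3 collagens and Postn, between 8.94 and 10.5 against 8.66 and 9.84 (adjusted permutation p = 0.096 for each). Adjusted permutation p-values were 0.367 for 10 macrophage markers, 0.182 for 3 lymphocyte markers, and 0.955 for 2 endothelial markers and for Acta1, the 1 skeletal muscle marker tested. In bulk tissue fewer cells of a type and less RNA per cell cannot be told apart.

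Within the groups Dusp9 had r = 0.72 with the epithelial mean (rho = 0.66, permutation adjusted p = 0.351), and 0.57 without the 2 farthest arrays. Without Krt19 it was 0.58 (rho = 0.40, exact permutation p = 0.0667, unadjusted). For Dusp6 r was -0.23 (permutation adjusted p = 0.82). Array background was 3.71 ± 0.15 in the knockout and 3.60 ± 0.10 in the wild type (SD, n = 6 each, exact permutation p = 0.149). The part of cell makeup in the differences of the phosphatases was not tested.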

How the data were processed

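Total RNA of 12 tumour samples was extracted with Trizol, labelled with biotin and hybridised to an Affymetrix mouse array, per the labels' protocols. The authors deposited 1 table of log2 signals made with GCRMA, which corrects background and normalizes between arrays, per the submitters' processing notes. The log2 scale was read from the values (-0.07 to 14.72, array medians 3.87 to 4.10). The GCRMA version and any scan date or batch are not given in the sources used here. GCRMA compresses differences near background, and precision is limited by the 12 arrays. The values were used as deposited, and 0 columns were left unused. The platform annotation gave 1 symbol to 20393 probe sets, several to 691 and none to 1606, and 20364 of those with 1 symbol were matched to a RefSeq table of GRCm38.p6.

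limma 3.58.1 in R 4.3.3 (lmFit, eBayes with trend, two-sided, Benjamini-Hochberg) was fitted to all 12 arrays with genotype as the only term, over genes (brightest probe set, mean above the median of 3.98, control probe sets left out) and over all probe sets for those below the filter. A probe set at or below array background on a whole group gives a bound only: the bright group's mean against the dim group's with each value raised to its background. Correlations and permutation tests were exact (Python 3.11.15, numpy 2.4.6, scipy 1.17.1), and figures were drawn with matplotlib 3.10.9. The fit and the correlation test were tested on simulated data.

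The 8 genes, the gene lists and the markers were chosen with earlier results of these data known. Named genes are the 8 genes, all measured Dusp genes whose values the text turns on, of each list up to 4 past the threshold by smallest adjusted p and the gene of highest mean signal, the 5 genes most alike to each phosphatase, the correlation references and Hunk. The highest mean signal is no measure of abundance between probe sets. Spred1 and Hbegf were added to complete counts. Alternatives were other filters, eBayes settings, normalizations, array weights, probe-set means, the replicate number as a block, a beta-actin covariate, values raised to background, knockout arrays 4 and 5 averaged, and leaving out each array. Of the correlations, ranks and median centring were tried too. The epithelial mean without Krt19 was added after seeing the data.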

Additional observations from a re-analysis of the deposited data

Results flagged for a closer look

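In 3 of 14 groups of a phosphatase and a genotype, 1 array stood apart from the other 5 by Dixon's criterion (gap to the nearest array over the range of the group, critical value 0.625). Chance gives this for about 1 in 20 groups. Dusp2 was highest on knockout array 1 at 4.90, with the next at 4.56 (0.789 of the range), and lowest on wild-type array 5 at 4.07, with the next at 4.49 (0.792). Dusp10 was highest on wild-type array 2 at 4.13, with the next at 3.97 (0.727). That array had the highest background of the wild type, 3.75, and wild-type array 5 the lowest, 3.45; knockout array 1 had the lowest background of the knockout, 3.60. Within the groups, array background had r = 0.89 with Dusp10 (rho = 0.89, permutation adjusted p over 8 relations 0.000255) and 0.22 with Dusp2 (rho = 0.40, permutation adjusted p = 0.589). With Dusp6 it had r = -0.33 (permutation adjusted p = 0.484), but rho = -0.77 (exact permutation p = 0.00979, unadjusted). With Dusp16 it had r = -0.57 (rho = -0.37, permutation adjusted p = 0.169).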

How the results depend on the processing

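The count of all genes past the threshold moved more than the phosphatases did. The main 113 higher and 115 lower genes became 55 and 57 without a filter, 199 and 191 with array weights, 47 and 25 with the beta-actin covariate and 59 and 65 with knockout arrays 4 and 5 averaged, and median centring left 68 higher and 126 lower while moving the median of all genes to -0.05. Leaving out each array gave 44 to 101 higher and 50 to 122 lower, fewest without wild-type array 4, and calls fell by over 1.5 times in a direction without knockout arrays 3, 4, 5 or 6 or wild-type arrays 3, 4, 5 or 6. In all of these fits Dusp6 and Dusp9 were past the threshold (2 to 2 phosphatases lower with each array left out). These calls repeat the contrast on which the genes were chosen and are no support for it. The filter at the 75th percentile (6.53) tested neither, which gave 0 lower phosphatases, and called 2 ERK feedback genes lower, Errfi1 and, newly, Ier3. The beta-actin covariate left 3 of the latter, Etv5, Spred2 and Spry2, and leaving out each array 5 to 6. With the replicate number as a block there were 28 higher and 41 lower genes, Dusp6 and Dusp9 among them and Spred1 not. Whether the numbers pair the arrays is not settled by the values. Same-numbered arrays correlated at -0.02 to 0.14 in their deviations, over 0.1 in 2 of 6 pairs, and 4 of 12 arrays were closest to their own number. The SE of Dusp14 was 0.53 in the main fit and 0.26 with the block. For single phosphatases, the beta-actin covariate moved the difference of Dusp10 to -0.10, beside those of Dusp1 and Dusp2 given above, and their other alternatives moved by less than the spread between arrays. Of the correlations, 1 was past the threshold in the main setting, 0 on ranks, 0 after median centring and 0 to 1 with each array left out. Signals near background limit Dusp6 and Dusp9 in the knockout, Dusp10 and Dusp14.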
